A study of Mus musculus with 4 samples.

Results

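The core genes of the Hippo pathway were examined for PHF2 binding in mouse skeletal muscle. They are 10 genes, taken by name from 21887 protein-coding genes of RefSeq on the nuclear chromosomes: the kinase genes Stk3, Stk4, Lats1 and Lats2, the adaptor genes Sav1 and Mob1b, the coactivator genes Yap1 and Wwtr1, and the transcription factor genes Tead1 and Tead4. All peaks that overlapped the gene body, or 5 kb on either side, by at least 1 bp were taken for each gene. The members were chosen by pathway, with the presence and fold enrichment of PHF2 peaks in these same lists in view, so the values they were selected on are those described here, and member counts and peak values are given as a description, with no test.

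The peaks came from CUT&RUN, an assay that tethers a nuclease to an antibody on chromatin and sequences the DNA it frees, on the gastrocnemius (a calf muscle) of male C57BL/6 mice aged 4 weeks. Both genotypes carried floxed Phf2 alleles (Phf2 flox/flox). Control muscle (Ctrl) lacked Cre (Acta1 Cre-), and knockout muscle (KO) carried it (Acta1 Cre+). The Acta1 promoter drives Cre in muscle fibres, so other cells of the muscle keep Phf2. Muscle of either genotype was profiled with an antibody to PHF2 and, for background, with non-specific IgG, giving 4 groups of 1 library each. The labels do not say how many mice stand behind a library. With no replicate in any group, each difference describes these libraries and has no replicate check, and no p-value was computed across libraries or genes.

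The Ctrl PHF2 list held 1621 peaks and the KO PHF2 list 161, and the IgG lists held 77 (Ctrl) and 152 (KO). Read totals are unknown. Peak lists measure neither the loss of Phf2 nor the amount of its protein, and they give no check of the genotypes. Over all protein-coding genes, 7.38% had a Ctrl PHF2 peak in the gene body plus 5 kb and 0.713% a KO PHF2 peak, so a KO count of 0 in a short marker list is at the background. Among cell type markers, 3 of 10 muscle fibre markers (Des, Casq1 and Ttn) had a Ctrl PHF2 peak in the same window, and 0 had a KO PHF2 peak. Of 10 satellite cell markers, 4 had a Ctrl PHF2 peak (Cxcr4, Notch1, Spry1 and Hes1) and 3 of those a KO PHF2 peak (Notch1, Spry1 and Hes1), while Pax7 and Myf5 had neither. Endothelial markers had Ctrl PHF2 peaks at 2 of 8 genes, immune markers at 1 of 6 and fibro-adipogenic markers at 0 of 6, and none of these genes had a KO PHF2 peak. The part of other cell types in the results below was not tested.

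The Hippo pathway is a kinase relay that restrains growth. The MST kinases (Stk3, which encodes MST2, and Stk4, which encodes MST1) act with the scaffold SAV1 to switch on the LATS kinases, which work with a MOB1 adaptor. Active LATS phosphorylates the coactivators YAP (Yap1) and TAZ (Wwtr1) and holds them out of the nucleus. When unphosphorylated, YAP and TAZ enter the nucleus and bind TEAD transcription factors, and in muscle this arm is known for its part in fibre growth, satellite cell proliferation and the expression of muscle genes through TEAD sites. PHF2 is a chromatin protein with a PHD finger, which reads methylated histone H3 at active promoters, and a Jumonji demethylase domain.

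Of the 10 genes, 5 had a Ctrl PHF2 peak, with 7 peaks between them, against 7.38% of all protein-coding genes with one in the same window. These were Lats1, Yap1, Wwtr1, Tead1 and Sav1. A KO PHF2 peak was found at 1 gene, Lats2, against 0.713% of all genes, and Lats2 had no Ctrl PHF2 peak. No member had peaks in both genotypes. Of all 21887 genes, 1615 had a Ctrl PHF2 peak and 156 a KO PHF2 peak, and 30 of those 156 had no Ctrl PHF2 peak. Genes with both were thus few among all genes, although most genes with a KO PHF2 peak also had a Ctrl PHF2 peak. Stk3, Stk4, Mob1b and Tead4 had no peak in any list, as was the case for 92.3% of all genes. An IgG peak lay at 0 of the 10 genes, against 0.16% of all genes for either IgG list. The members are long genes, from 23.1 to 280 kb with a median of 73.2 kb, where the median over all protein-coding genes was 17.2 kb. Among the 8553 genes within that range of length, 11.3% had a Ctrl PHF2 peak, 1.16% a KO PHF2 peak and 88.3% no peak in any list. Members with a Ctrl PHF2 peak had a median length of 72.6 kb, and those with no peak 77.5 kb. A Ctrl PHF2 peak within 1 kb of an annotated gene end was found at 4 members, against 5.6% of all genes, since the peak at Sav1 lies a little farther in.

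**Figure D1:**
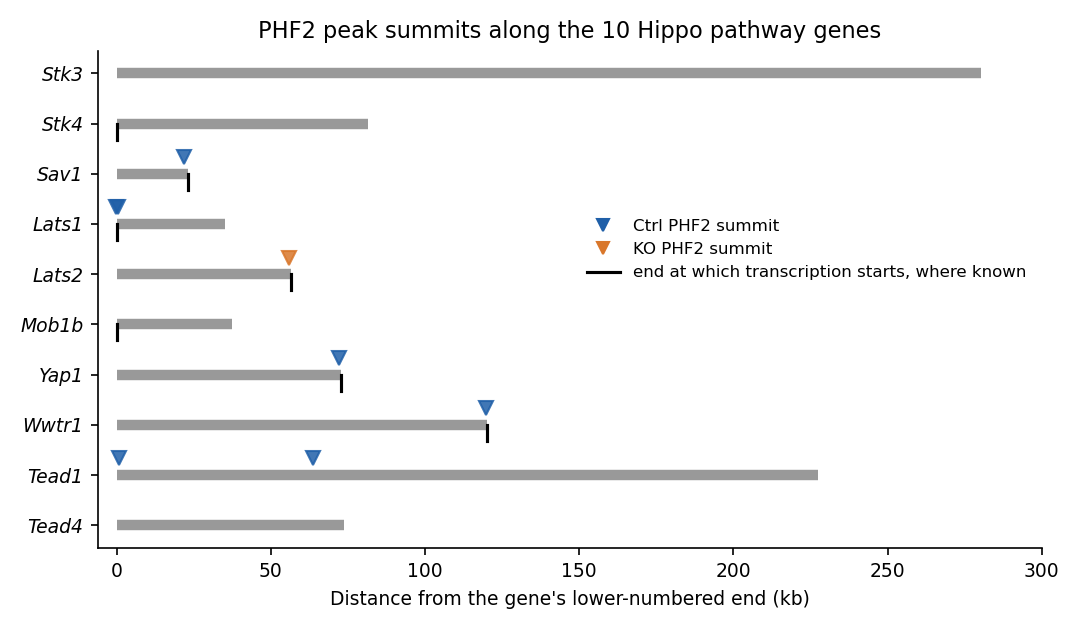
The 10 genes are drawn to scale as grey bars, with the distance in kb from the lower-numbered end on the x axis. Triangles mark peak summits in the Ctrl PHF2 and KO PHF2 lists, and black ticks the end at which transcription starts where the reference table gives a strand. Each of the 6 genes with a summit has one close to an end (the 2 at Lats1 merge at this scale), and Tead1 has a further summit 63.6 kb inside.

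The DNA just before the transcription start is shown for 5 of the 7 members with an entry in the RefSeq promoter table (GRCm38.p6, the assembly behind mm10), to set starts with a Ctrl PHF2 peak (Lats1, Yap1 and Wwtr1) beside the start with a KO PHF2 peak (Lats2) and a start with none (Mob1b). The table had no entry for Tead1, Tead4 and Stk3. Each sequence is the 250 bases before the start, 5′ to 3′ on the strand of the gene. Capitals mark motifs, searched on both strands: GGAATG, the core of the TEAD site, CAGCTG, an E-box, TGANTCA, the AP-1 site, and GGGCGG, the GC box. Neighbouring matches may overlap. The Lats1 sequence is chr10:7680959-7681208 (plus strand), Yap1 is chr9:8004597-8004846 (minus), Wwtr1 is chr3:57575911-57576160 (minus), Lats2 is chr14:57746124-57746373 (minus) and Mob1b is chr5:88720621-88720870 (plus).
Lats1: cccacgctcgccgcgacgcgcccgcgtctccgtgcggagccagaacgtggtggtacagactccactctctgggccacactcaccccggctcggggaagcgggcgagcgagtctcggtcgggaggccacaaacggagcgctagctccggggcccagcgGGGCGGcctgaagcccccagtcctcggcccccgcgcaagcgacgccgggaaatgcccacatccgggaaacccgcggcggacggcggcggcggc
Yap1: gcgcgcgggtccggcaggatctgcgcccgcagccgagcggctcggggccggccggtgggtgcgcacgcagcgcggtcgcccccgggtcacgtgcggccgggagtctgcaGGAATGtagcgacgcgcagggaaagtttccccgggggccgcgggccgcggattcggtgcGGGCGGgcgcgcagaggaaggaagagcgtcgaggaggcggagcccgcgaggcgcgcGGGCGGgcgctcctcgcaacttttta
Wwtr1: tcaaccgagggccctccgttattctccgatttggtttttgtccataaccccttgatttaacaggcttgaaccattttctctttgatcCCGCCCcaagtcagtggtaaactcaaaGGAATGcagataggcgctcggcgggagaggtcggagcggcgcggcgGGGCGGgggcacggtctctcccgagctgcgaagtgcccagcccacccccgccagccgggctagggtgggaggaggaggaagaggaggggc
Lats2: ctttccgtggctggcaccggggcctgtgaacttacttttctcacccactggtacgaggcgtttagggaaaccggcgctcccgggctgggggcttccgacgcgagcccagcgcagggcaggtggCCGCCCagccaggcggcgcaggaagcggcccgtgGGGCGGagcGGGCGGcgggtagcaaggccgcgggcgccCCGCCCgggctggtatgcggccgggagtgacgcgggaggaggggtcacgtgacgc
Mob1b: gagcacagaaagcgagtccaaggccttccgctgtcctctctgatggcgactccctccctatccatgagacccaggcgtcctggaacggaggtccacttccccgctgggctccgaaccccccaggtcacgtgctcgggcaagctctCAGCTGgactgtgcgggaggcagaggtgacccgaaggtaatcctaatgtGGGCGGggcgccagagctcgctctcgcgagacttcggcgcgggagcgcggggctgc

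These starts are rich in CpG dinucleotides, the form of promoter that is usually unmethylated and carries methylated H3 when active. In the table's full window of 300 bases (250 before to 50 after the start), Sav1 held 50 CpG, Yap1 49, Lats1 42, Lats2 37, Mob1b 29, Stk4 20 and Wwtr1 20 at its outermost start. The median over 21263 starts of protein-coding genes was 13, with quartiles of 4 and 24. The 1345 starts with a Ctrl PHF2 peak within 1 kb had a median of 27 (quartiles 19 and 35), and the 19918 without one had 12. Among the members, the 4 with a Ctrl PHF2 peak had a median of 45.5 and the 2 with no peak 24.5. Their order was not complete, because Wwtr1, with a peak, had no more CpG than Stk4, without one. Lats2 has a second start inside the gene, which held only 4 CpG and lay 11263 bp from the KO summit.

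The GC box, bound by Sp factors, was found in the window of all 7 members, from 1 match in Lats1 to 6 in Sav1, and in 46.2% of all starts. Starts with a Ctrl PHF2 peak held it in 74.6% of cases. The TEAD core was found in 4 of the 7 members, against 13.6% of all starts. It stood at 141 bases before the start in Yap1, 136 in Wwtr1 and 106 in Sav1, and in Lats2 it lay in the 50 bases after the start, which are not printed. Over all starts with a Ctrl PHF2 peak the TEAD core was no more common, at 10.7%. Mob1b alone held CAGCTG, the only E-box form searched, which 15.6% of all starts held. Other E-box forms were not counted, such as CACGTG, which can be read in the printed Yap1, Lats2 and Mob1b sequences. The AP-1 site was in 0 of the 7 members and 6.99% of all starts. A match of this kind describes the letters and not a bound site.

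At the top of the cascade, the MST kinase genes had no peak. Stk3 (Gene ID 56274, chromosome 15, 34875499 to 35155882), the longest of the 10 genes, had its nearest Ctrl PHF2 peak 637 kb away. Stk4 (Gene ID 58231, chromosome 2, 164074113 to 164155524) had its nearest at 602 kb. The window of 5 kb was therefore not close to deciding any absence: every member peak touched the gene body itself, and among the 5 members with no Ctrl PHF2 peak the closest such peak was the one 602 kb from Stk4.

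Sav1 (Gene ID 64010, chromosome 12, 69965009 to 69988141), the scaffold of the MST kinases, had 1 Ctrl PHF2 peak at 69986731 to 69987023. This is a small peak of 293 bp, where the narrowest in the list is 292 bp. Its fold enrichment, the authors' ratio of the summit to the caller's local background, was 6.78, and the summit held 15 tags (exact Poisson 95% interval 8.40 to 24.7, which covers counting error only). Tags are the sequenced fragments at the summit, recovered from the authors' fold and p, and without molecular identifiers they can include copies made by PCR. The summit lay 48 bp downstream of the RefSeq start, and that start itself is inside the peak. It is the peak nearest to a start among the members, 1187 bp inside the outermost end of the annotated gene.

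The LATS kinase genes differed between the lists. Lats1 (Gene ID 16798, chromosome 10, 7681200 to 7716461) had 2 Ctrl PHF2 peaks and no KO PHF2 peak. The first, at 7680919 to 7681212, had a fold of 6.02 and 17 tags (9.90 to 27.2). Its summit lay 255 bp before the start. The second, at 7681480 to 7681871, had a fold of 7.11 and 19 tags (11.4 to 29.7). Its summit lay 414 bp after the start. The start lies inside the first peak, near its edge, and the 2 summits stand on either side of it, with 267 bp between the peaks. Their summit tags differ by less than the counting error. The first peak covers all 250 bases of the Lats1 sequence printed above. It also overlaps Pcmt1, a protein repair methyltransferase gene that runs the other way from a RefSeq start at 7681158, so this peak cannot be assigned to Lats1 alone. Of all protein-coding genes, 1.08% had 2 or more Ctrl PHF2 peaks.

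Lats2 (Gene ID 50523, chromosome 14, 57689662 to 57746212), the paralog of Lats1, had the opposite pattern. Its KO PHF2 peak, at 57745637 to 57745963 and 327 bp wide, had 15 tags (8.40 to 24.7) at a fold of 7.51. The summit lay 442 bp downstream of the outer start, within both Lats2 and the predicted gene Gm52140, which overlaps that end. The nearest Ctrl PHF2 peak was 802 kb from the gene. Of all genes, 0.137% (30 of 21887) had a KO PHF2 peak and no Ctrl PHF2 peak in their window, where 156 had any KO PHF2 peak. Of the 161 KO PHF2 peaks, 39 (24.2%) overlapped no Ctrl PHF2 peak. In the KO list 38 peaks had a higher fold, 5 of them among the 39 that overlapped no Ctrl peak. The 15 tags equal the median of both lists, and 42.9% of the Ctrl PHF2 peaks were called with fewer. Tags were not scaled between these libraries, so this rank does not show whether such a site would be called in Ctrl. Ctrl tags at this site were not measured, so the absence of a peak is not a level of 0, and a change between genotypes was not tested. Fibre markers had 0 and satellite cell markers 3 of 10 members in the KO PHF2 list, and their part in the Lats2 peak was not tested.

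Mob1b (Gene ID 68473, chromosome 5, 88720871 to 88758455), one of the adaptor genes for the LATS kinases, had no peak, and its nearest Ctrl PHF2 peak was 1607 kb away. Its paralog Mob1a had 0 peaks as well. The start of Mob1b has more CpG than most, 29 in 300 bases, more than 82.8% of all starts.

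**Figure D2:**
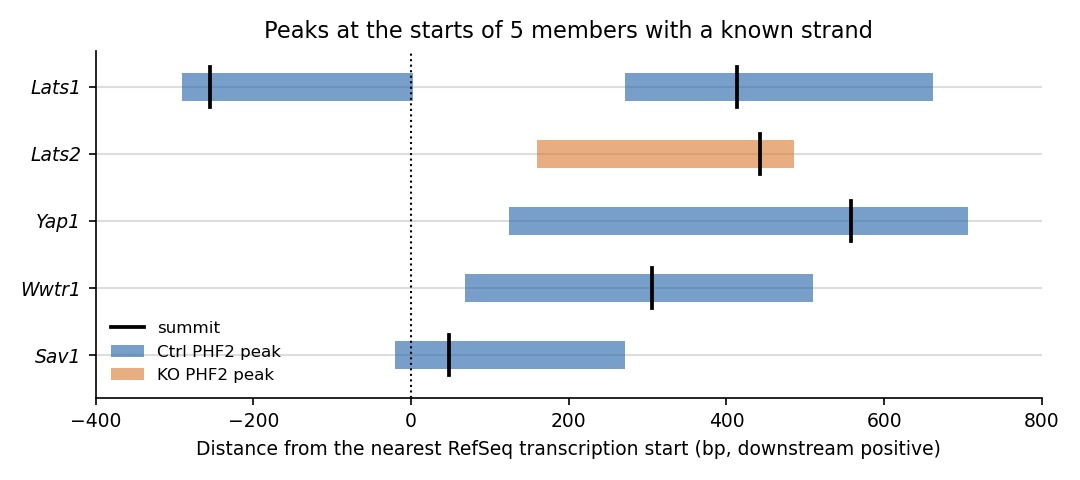
Bars span the peaks and black lines mark the summits, in bp from the nearest RefSeq start of each gene, downstream to the right, with the dotted line at the start. Of the 5 Ctrl PHF2 summits shown, only the first at Lats1 lies upstream of its own gene's start, at -255 bp. The KO PHF2 summit at Lats2 lies at 442 bp.

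Both coactivator genes had a Ctrl PHF2 peak at their 5′ end and none in KO. Yap1 (Gene ID 22601, chromosome 9, 7931999 to 8004638) had a peak of 584 bp at 8003889 to 8004472. Its fold was 7.60, at 17 tags (9.90 to 27.2), and its summit lay 558 bp downstream of the start. Wwtr1 (Gene ID 97064, chromosome 3, 57455644 to 57575910), the gene of TAZ, had a peak of 443 bp at 57575366 to 57575808, with its summit 305 bp downstream of the nearer and 339 bp of the farther of its 2 listed starts. Wwtr1 had the lowest fold enrichment of the members, 4.66, and a -log10 q of 3.02, but 20 tags (12.2 to 30.9), more than Yap1. The recovered local background was 2 at Wwtr1 and 0.584 at Yap1, on the caller's scale, so the lower fold at Wwtr1 goes with a higher background and not with fewer tags. The tag intervals of the 2 genes overlap.

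Of the TEAD factor genes, Tead1 had the strongest signal of all 10 genes and Tead4 none. Tead1 (Gene ID 21676, chromosome 7, 112679356 to 112906784) had a broad Ctrl PHF2 peak of 1970 bp at 112678619 to 112680588. Its summit held 24 tags (15.4 to 35.7), at a fold of 8.29. It spans the lower-numbered end of the gene, with the summit 651 bp inside. Only 44 of the 1621 Ctrl PHF2 peaks were wider, although 260 had a higher fold. A second, smaller peak at 112742751 to 112743143 lay 63.6 kb inside. It held 13 tags (6.92 to 22.2), at a fold of 6.94. It is the one member peak far from a gene end, and its tag interval overlaps that of the first peak. Strand and exons of Tead1 were not analysed here, so the end was not named as its start. Tead4 (Gene ID 21679, chromosome 6, 128227143 to 128300813), a TEAD factor known for its role in myoblast differentiation, had no peak, with the nearest Ctrl PHF2 peak 880 kb away.

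**Figure D3:**
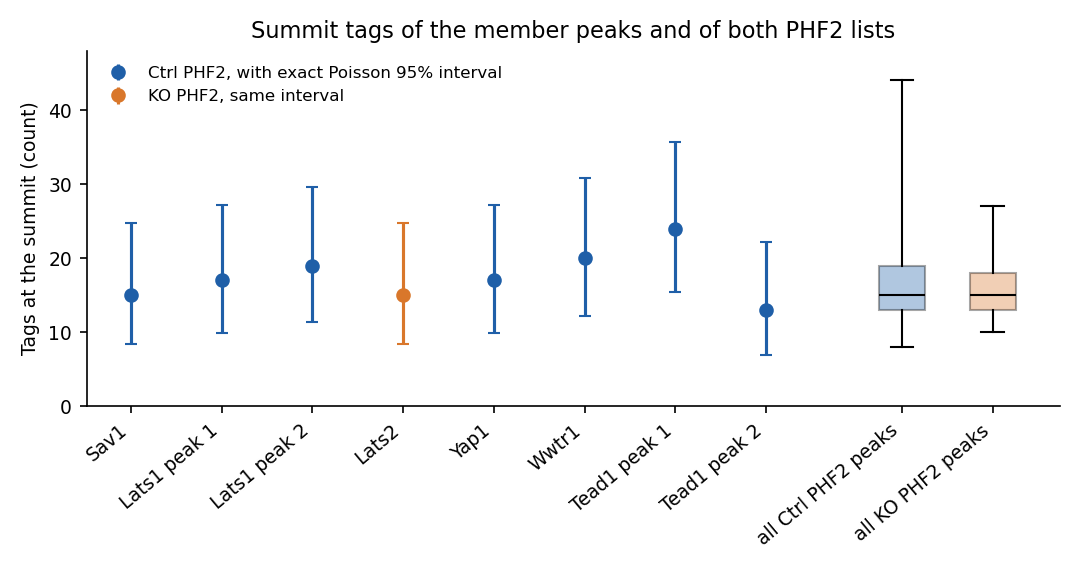
Points give the tags at each member summit with exact Poisson 95% intervals for counting error, and boxes give the median and quartiles of all Ctrl PHF2 and all KO PHF2 peaks, with whiskers to the lowest and highest. The members run from 13 to 24 tags, around the median of 15 of both lists, and all their intervals overlap. Tags were not scaled between the libraries.

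Set beside the Ctrl PHF2 list, the member peaks were of ordinary size. Their 7 summits held 13 to 24 tags with a median of 17, where the list has a median of 15 and quartiles of 13 and 19. Fold enrichment ran from 4.66 to 8.29 with a median of 6.94, against 6.37 in the list. Widths ran from 293 to 1970 bp with a median of 393 bp, against 505 bp, so that Tead1 alone was broad and the others were near or below the middle of the list. Of the 5 Ctrl PHF2 summits at members with a known start, 4 lay downstream of the gene's own start. The other, at Lats1, lies nearer to the start of its neighbour Pcmt1 and downstream of that start. The whole list was measured from the starts of any protein-coding gene, which is not the same measure. Of its 1063 summits within 1 kb of such a start, 77.8% lay downstream, with a median offset of 232 bp.

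**Figure D4:**
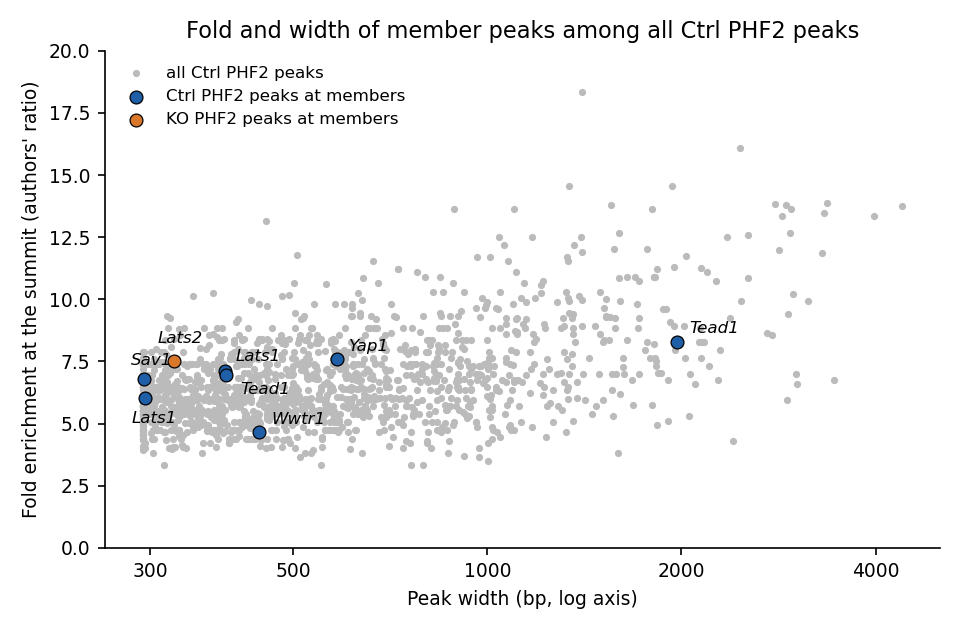
Each grey point is a Ctrl PHF2 peak, with its width in bp on a log axis and the authors' fold enrichment at the summit. Coloured points are the peaks at members, the KO PHF2 peak at Lats2 taken from its own list. Tead1 stands apart at 1970 bp, and Wwtr1 is lowest at a fold of 4.66.

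None of the 7 Ctrl PHF2 peaks overlapped a KO PHF2 peak, and the KO peak closest to a member with a Ctrl peak lay 838 kb from Sav1. In the whole list 7.03% of Ctrl PHF2 peaks had an overlapping KO peak. Among the 1165 Ctrl PHF2 peaks with 13 to 24 tags, the range of the members, 71 did (6.09%).

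The wider pathway was then described from a list of 82 further Hippo genes, of which 81 matched the RefSeq table (Frmd1 did not). Of these, 17 had a Ctrl PHF2 peak only, 2 a KO PHF2 peak only, 2 both and 60 neither. In all, 23.5% had a Ctrl PHF2 peak and 4.94% a KO PHF2 peak, against 7.38% and 0.713% of all protein-coding genes. A KO PHF2 peak only was found at 2.47%, against 0.137% of all genes. The highest Ctrl PHF2 fold in each gene with a peak had a median of 5.98, and of 7.11 over the 5 members. The members were chosen with their fold in view, so these 2 medians do not compare like with like. These genes are long too, with a median of 40.8 kb, and the shares were not compared by a test.

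The STRIPAK complex is a phosphatase assembly that removes the activating phosphates from the MST kinases. A Ctrl PHF2 peak lay at 4 of its 16 genes (25%), against 7.38% of all protein-coding genes. The KO PHF2 count of 0 is at the background, since 0.713% of all genes had such a peak. The complex held the 2 strongest peaks of the wider list. Slmap, which encodes the subunit that docks STRIPAK onto phosphorylated MST, had a fold enrichment of 10.2 with 30 tags (20.2 to 42.8), more tags than any member, at 79 bp before its start. Strn3, which encodes a striatin scaffold, reached 10.1, and its summit held 23 tags (14.6 to 34.5). That peak, 1128 bp wide, also overlaps the neighbour Ap4s1. Strn and Fgfr1op2 had smaller peaks, and the Fgfr1op2 peak, with its summit 104 bp before the start, also overlaps the neighbour Ints13. The phosphatase subunit genes Ppp2ca and Ppp2r1a were among the 12 STRIPAK genes with no PHF2 peak.

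Kinases that act on LATS beside MST, and their activators, had a Ctrl PHF2 peak at 5 of 23 genes (21.7%). For KO the count was 1 (4.35%), where the shares over all protein-coding genes were 7.38% (Ctrl) and 0.713% (KO). The MAP4K family gene Tnik had the strongest Ctrl PHF2 peak, with a fold enrichment of 7.97, and Taok1, Map4k5, Map4k3 and Frmd6 followed. Frmd6, the gene of a FERM-domain protein upstream of MST, had overlapping peaks in both genotypes. The Ctrl summit held 11 tags (5.49 to 19.7) at a fold of 4.34, and the KO summit 13 tags (6.92 to 22.2) at a fold of 6.60. The tag intervals of both genotypes at Frmd6 overlap. Read totals are unknown and tags were not scaled between libraries, so they do not compare the genotypes. Nf2, the gene of the upstream regulator merlin, had no PHF2 peak.

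Of 25 genes of cell polarity, junctions and protocadherins, 5 (20%) had a Ctrl PHF2 peak and 1 (4%) a KO PHF2 peak. The shares over all protein-coding genes were 7.38% and 0.713%. In Ctrl, Amotl1, an angiomotin gene whose product binds YAP, led with a fold enrichment of 9.28 in a peak of 1547 bp. The giant cadherin gene Fat1 had 2 peaks, of 6.46 and 4.34, and Fat4, Dlg1 and Mpp5 (also called Pals1) had 1 each. Amotl2, a close relative of Amotl1, had a KO PHF2 peak only, with 20 tags (12.2 to 30.9) at a fold of 6.59, 791 bp downstream of a start. Its nearest Ctrl PHF2 peak was 209.6 kb away. The angiomotin genes thus had, like the LATS genes, 1 paralog with a Ctrl PHF2 peak and another with a KO PHF2 peak, a likeness picked out after the values were seen.

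Of the 11 genes that hold YAP and TAZ in the cytoplasm or mark them for degradation, 4 (36.4%) had a Ctrl PHF2 peak. A KO PHF2 peak lay at 2 (18.2%), where the shares over all protein-coding genes were 7.38% (Ctrl) and 0.713% (KO). The 14-3-3 genes Ywhaq (7.60, with 17 tags), Ywhaz (6.76, with 18 tags), Ywhag and Ywhae had Ctrl PHF2 peaks. Ywhaz had 2, and the stronger, whose values are given here, did not overlap a KO PHF2 peak. The other, with a fold of 6.45, overlapped a KO PHF2 peak with a fold enrichment of 5.63 and 13 tags (6.92 to 22.2). Fbxw11, a beta-TrCP ubiquitin ligase gene, had a KO PHF2 peak only, with 12 tags (6.20 to 21.0) at a fold of 6.19, 122 bp downstream of its start, and its nearest Ctrl PHF2 peak was 187 kb away. Of the other TEAD and Vgll genes, 1 of 6 (16.7%) had a PHF2 peak, in Ctrl. Vgll4, which encodes a cofactor that competes with YAP for TEAD, had a fold enrichment of 8.32 with 21 tags (13.0 to 32.1). Its summit lay 48520 bp downstream of the nearest listed start. Tead2 and Tead3 had 0 peaks, so that Tead1 was the 1 TEAD gene of the family with any.

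**Figure D5:**
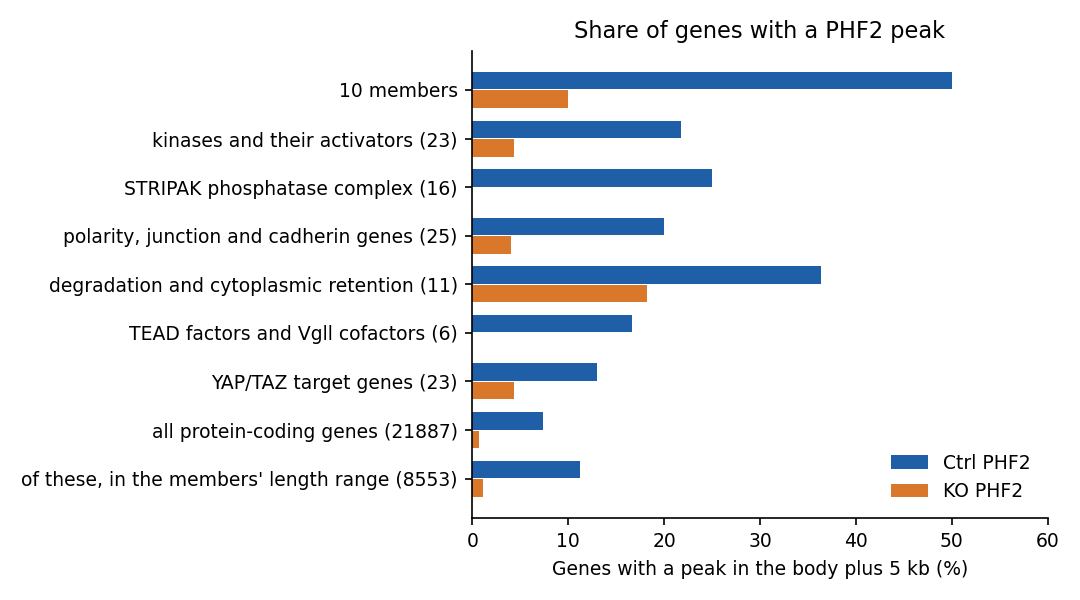
Bars give the percentage of genes in each group with a peak in the gene body plus 5 kb, for the Ctrl PHF2 and KO PHF2 lists, with the number of genes in brackets. The members stand at 50% and 10%, but they were chosen with their peaks known, while all protein-coding genes stand at 7.38% and 0.713%.

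The targets of YAP and TAZ were described from a separate list of 23 genes. A Ctrl PHF2 peak lay at 3 of them (13.0%), against 7.38% of all protein-coding genes. These were Tgfb2, a growth factor gene, Gadd45a, a stress response gene, and Asap1, an Arf regulator gene. Tgfb2 had 2 peaks, the stronger with a fold of 9.47 and 19 tags (11.4 to 29.7) and the other with a fold of 5.85. Gadd45a had 8.83 and 20 tags (12.2 to 30.9), and Asap1 had 5.76 and 12 tags (6.20 to 21.0). The stronger Tgfb2 peak, with its summit 2091 bp downstream of a start, also overlaps Gm35655, and the Gadd45a peak overlaps E230016M11Rik. The Asap1 summit lay 70514 bp from the nearer gene end. Amotl2, which belongs to both lists, was the 1 target with a KO PHF2 peak, against 0.713% of all genes. The classical targets Ccn1, Ccn2 and Ankrd1 were among the 19 with no PHF2 peak. Of all genes, 92.3% had no peak in any list. None of the further Hippo genes or targets had an IgG peak, which 0.16% of all genes had.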

How the data were processed

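Sample titles gave the groups. The submitters' processing notes name Bowtie2, MACS2 and mm10. Their versions and settings, the treatment of duplicates and the control library were not given in the sources used here. Each peak name carries a single library name, so each list was taken as the calls of that library. The names do not show whether a control library was used. In the 10 deposited columns, the authors' fold is a ratio of summit to local background, the authors' -log10 p and -log10 q test that same excess, and the deposited score, which is 10 times the -log10 q cut to an integer in every row, was not used.

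MACS2 writes the fold as (pileup + 1) / (background + 1) and p as a Poisson tail, so tags were solved for each peak. In all 309 Ctrl and 84 KO distinct pairs of values the pileup was a whole number, within 0.005, times 1 factor (0.649 and 0.609), where the best other factor between 0.5 and 1.2 gave 36.6% and 39.3%. In 13 Ctrl pairs and 1 KO pair more than 1 solution existed. None of these was a member peak, and tags of Tnik and Amotl1, which were among them, are not printed. On 300 peaks simulated with these same formulas 100% of tags were recovered. That checks the solving step and not whether the formulas hold for the deposited values. Intervals are exact Poisson 95% intervals for counting error only.

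Gene bodies are those of RefSeq on GRCm38.p6, in a table without exons, and strand and starts those of the RefSeq promoter table. Coordinates are 1-based. Overlap code in Python was tested against a brute-force search. The members and lists were chosen with earlier results of these data known. All members were named, and of the other lists each gene with a KO PHF2 or IgG peak and the 8 highest by Ctrl fold. Absent genes named from these lists were chosen after their values were seen. Alternatives were other windows, a stricter q, summits alone, gene ends, merged peaks, a reciprocal overlap, a common p threshold and limiting the Ctrl list to as many peaks as KO. Software was Python 3.11.15 with NumPy 2.4.6, SciPy 1.17.1 and pandas 2.3.3, and matplotlib 3.10.9 for plots.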

Additional observations from a re-analysis of the deposited data

How the results depend on the processing

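No paired analysis was possible because there was 1 library per group, which also left none to omit. The 5 members with a Ctrl PHF2 peak and Lats2 in KO were the same with no flank and with 10 kb. Requiring a -log10 q of at least 5 removed Wwtr1, left 8 of the other Hippo genes in Ctrl and 0 in KO, and left 0 target genes in KO. A Ctrl PHF2 list limited to its 161 peaks of highest fold held 0 members and 0 member peaks, 3 other Hippo genes and 1 target gene, since fewer peaks enter by construction. Peaks within 1 kb of a gene end left 2 other Hippo genes in KO, and 1 target gene in Ctrl and 0 in KO. In all, 61 alternatives stayed within 1.5 times the reported count and 10 moved. Depth is unknown, and at 13 to 24 tags per summit the counting intervals of all member peaks overlap.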
